A study of Mus musculus with 9 samples.

Results

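The SOCS family of cytokine feedback inhibitors was examined in RNA-seq counts of CD4+ T cells, the T helper cells of adaptive immunity, taken from lymph node. The family consists of 8 genes, Cish and Socs1 to Socs7, which were chosen by their symbols as the whole family and not by a threshold. The set was nevertheless selected on the contrast between cKO and WT samples in the sense that results of that contrast were already known when it was proposed. The difference between genotypes in these 8 genes is therefore given as a description, with no p-value, and the share of members past the threshold of the fit over all genes is given once, as a count that supports nothing. All 8 were found among the 39017 gene IDs of the table, and all 8 were among the 14693 genes with enough counts to be tested, so no member was lost to the filter on low counts.

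Male C57BL/6 mice provided all 9 samples, and every sample carried a floxed Kdm6a allele on its X chromosome (floxed/y). Kdm6a encodes a demethylase of histone H3 lysine 27, and the series asked how its expression in immune cells affects other genes. In the 5 WT samples, numbered 1, 3, 4, 5 and 9, Cre was absent (CD4-Cre -/-). The 4 cKO samples, numbered 2, 6, 7 and 8, were CD4-Cre (+/-), a Cre that recombines in cells that have used the Cd4 promoter and so also in other cells descended from thymocytes that expressed Cd4. The WT mice were therefore floxed mice without Cre, and no group had Cre without the floxed allele, so presence of Cre and loss of Kdm6a cannot be told apart. The labels give no age, no stimulation and no statement that each sample is a separate mouse, so the spread between samples may be partly technical. The name of the deposited table includes the word "stim", which the labels do not explain.

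SOCS proteins close a loop. A cytokine binds its receptor, the attached JAK kinases phosphorylate the receptor and STAT transcription factors, and the STATs switch on genes that include CIS (the product of Cish), SOCS1, SOCS2 and SOCS3. Each SOCS protein carries an SH2 domain that binds phosphotyrosine and a SOCS box that recruits elongins B and C and cullin 5, an E3 ubiquitin ligase. SOCS1 and SOCS3 also hold a short kinase inhibitory region that blocks JAKs directly. SOCS4 to SOCS7 have longer N-terminal parts and are better known for acting on growth factor receptor and adaptor signalling than as early cytokine-induced genes.

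Promoter sequences of 4 members, Cish, Socs1, Socs3 and Socs4, were found in the RefSeq table for GRCm38.p6, each from 250 bases before the start site to 50 after it. They are shown for the 3 members with a match to the letters of a cytokine-responsive motif. The STAT motif was searched as TTCNNNGAA and as TTC and GAA with 4 bases between them, both of which read the same on either strand. An interferon-response motif, GAAA repeated with any 2 bases between, was searched on both strands and was added after the sequences had been seen. Capitals mark the matches.
Cish, chr9:107296409-107296708, plus strand: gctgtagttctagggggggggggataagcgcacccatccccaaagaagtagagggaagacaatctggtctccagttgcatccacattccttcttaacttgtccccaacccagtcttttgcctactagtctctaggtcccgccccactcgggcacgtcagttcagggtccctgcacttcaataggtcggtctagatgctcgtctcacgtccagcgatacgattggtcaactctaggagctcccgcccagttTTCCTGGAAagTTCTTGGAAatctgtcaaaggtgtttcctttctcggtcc
Socs3, chr11:117969317-117969616, minus strand: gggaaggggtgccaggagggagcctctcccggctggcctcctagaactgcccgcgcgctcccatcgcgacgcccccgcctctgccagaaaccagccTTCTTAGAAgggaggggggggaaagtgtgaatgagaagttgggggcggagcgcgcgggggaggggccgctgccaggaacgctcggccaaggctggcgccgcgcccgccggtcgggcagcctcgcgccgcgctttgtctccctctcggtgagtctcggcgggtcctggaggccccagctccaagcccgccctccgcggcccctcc
Socs1, chr16:10785487-10785786, minus strand: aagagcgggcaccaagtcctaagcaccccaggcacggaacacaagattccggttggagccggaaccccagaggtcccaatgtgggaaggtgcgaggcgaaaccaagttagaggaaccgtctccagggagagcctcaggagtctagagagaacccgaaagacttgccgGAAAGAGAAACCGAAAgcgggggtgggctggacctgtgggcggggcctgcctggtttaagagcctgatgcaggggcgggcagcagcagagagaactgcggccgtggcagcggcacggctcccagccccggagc

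Positions count from the RefSeq start used for each window. GENCODE M21 places the 5' ends of the Cish and Socs3 genes further upstream, at 107296026 and 117970047. Cish held 2 matches to TTCNNNGAA, TTCCTGGAA beginning at position 1 and TTCTTGGAA at position 12. Socs3 held 1, TTCTTAGAA at position -154. Socs1 held neither STAT spelling but had 2 matches to the interferon-response motif, which overlap each other, GAAAGAGAAA at -83 and GAAACCGAAA at -77. Socs4 held none of the 3 motifs in this window. Of all 32851 promoters in the table, 8.30% held TTCNNNGAA, 6.95% the form with 4 bases between TTC and GAA and 3.44% the interferon-response motif. A match is a description of letters, not a measured binding site.

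Depth was similar over the libraries. Total counts ran from 20587482 to 26387488, so that 1 CPM (the usual depth-scaled count, here with totals adjusted by TMM) rests on at least 20 reads. The 5 WT values of Kdm6a lay between 60.04 and 63.8 CPM and the 4 cKO values between 41.5 and 44.8 CPM (edgeR adjusted p = 2.89e-05). Counts cover whole genes and can include reads from exons that are not floxed. The source of the Kdm6a counts that remain in cKO was not tested. Its Y-linked paralog Uty was at 36.6 and 43.0 CPM (adjusted p = 0.00695) and Kdm6b at 113 and 117 CPM (adjusted p = 0.917). The markers that define CD4 T cells summed to between 3030 and 3250 CPM in every library, although 5 of these 8 genes were called between the genotypes. B cell markers summed to at most 5.73 CPM and dendritic cell markers to at most 3.75 CPM. Macrophage markers summed to 16.0 to 21.5 CPM, mostly Csf1r, and stromal markers to 84.5 to 119 CPM, nearly all Pecam1 (108 and 97.3 CPM in WT and cKO), and 4 of 5 neutrophil markers had 0 counts everywhere (Mpo was the other). CD8 markers summed to 11.9 to 15.1 CPM over the WT samples and 15.1 to 19.1 CPM over the cKO samples. Natural killer markers summed to 7.10 to 19.8 and 13.1 to 49.1 CPM, with Eomes the most abundant (means 10.9 and 20.4 CPM). In each of the B cell, CD8 and macrophage lists 1 gene was called between the genotypes, and 0 in the natural killer list. The share of mitochondrial counts in WT, 2.38% ± 0.0573 (SD, n = 5), was below that in cKO, 2.59% ± 0.138 (SD, n = 4; two-sided exact permutation p = 0.0317). The part of these differences in the SOCS values below was not tested. WT 1 stood apart, with the highest mean level of 16 T cell activation genes, 0.58 above the mean of all samples on the log2 scale. The remaining WT samples lay between -0.53 and -0.04 and the cKO samples between 0.01 and 0.43. Values without WT 1 are therefore given for some of the results below, though not for all. Of these 16 activation genes 0 were called higher and 1, Il2ra, lower in edgeR (4 higher and 2 lower at unadjusted p under 0.05, and 1 and 2 called by DESeq2), with a median log2 difference of 0.25. Without WT 1, 7 of the 16 were called higher.

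SOCS transcripts ranged from among the most abundant in these cells to mid-level ones. Per exon length (RPKM, the CPM divided by the union of exons in kilobases), the order in WT was Cish at 92.99 ± 9.76, Socs1 at 63.1 ± 3.96, Socs3 at 38.5 ± 7.40, Socs2 at 29.8 ± 6.12, Socs4 at 16.2 ± 0.468, Socs7 at 8.78 ± 0.641, Socs5 at 3.39 ± 0.335 and Socs6 at 1.54 ± 0.124 (SD, n = 5). Only Socs3 and Socs2 overlapped among neighbours in this order, with samples from 30.9 to 48.8 and from 22.9 to 38.0 RPKM. In cKO, Socs2 came after Socs1 at 26.8 ± 4.76 RPKM, and Socs3, at 19.9 ± 4.86 RPKM, overlapped both Socs2 (21.9 to 32.3 RPKM) and Socs4 (16.6 to 17.9 RPKM, SD over n = 4). The place of Socs2 depends on its length: with the longest transcript in place of the union of exons it was at 66.99 RPKM in WT, beside 63.1 RPKM for Socs1, and the samples of these 2 genes overlapped. The 4 cytokine-induced members thus lay above the other 4 in WT on either length, with Socs4 the nearest.

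**Figure D1:**
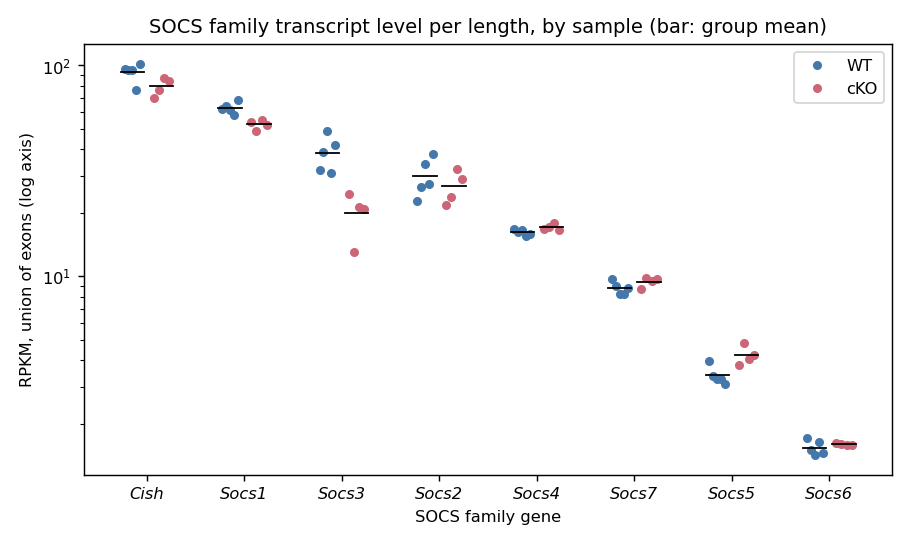
RPKM of each SOCS family gene (vertical log axis, union of exons) in the 5 WT and 4 cKO samples, with 1 point per sample and a bar at each group mean, ordered by the WT mean. Cish is highest and Socs6 lowest in both genotypes, and Socs3 moves from above Socs2 in WT to below it in cKO.

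Of the 8 members, 3 were past adjusted p 0.05 in the fit over all genes, Socs1 and Socs3 lower in cKO and Socs5 higher, beside 15.8% of all genes tested (8.82% lower and 7.0% higher). Nothing is read from this count, since the contrast was known when the family was picked. In 2 members, Socs1 and Socs3, the samples of the 2 genotypes did not overlap, beside 15.9% of all genes. The median log2 difference of the family was -0.05, against 0.0012 for all genes tested. It ranged from -0.10 to 0.03 over the other settings tried, so the family as a whole had no settled direction, and its members are best read one at a time.

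Socs3, whose product docks on gp130 family receptors and inhibits JAKs there, showed the largest difference of the family. It held 92.0, 113, 140.9, 89.4 and 121 CPM in WT 1, 3, 4, 5 and 9, and 70.7, 37.7, 61.8 and 60.2 CPM in cKO 2, 6, 7 and 8. Every cKO sample was below every WT sample, with cKO 6 the lowest and WT 4 the highest. The means were 111 ± 21.4 (SD, n = 5) and 57.6 ± 14.1 CPM (SD, n = 4), a log2 difference of -0.95 (SE 0.18), which is 48.3% lower. Without cKO 6 the difference was -0.79, without WT 4 it was -0.85 and without WT 1 it was -1.01.

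Socs1 encodes the main brake on interferon-gamma and common gamma chain cytokine signalling. Its values were 182, 187, 179.6, 169 and 200.5 CPM in WT 1, 3, 4, 5 and 9, and 157, 142, 160.2 and 152 CPM in cKO 2, 6, 7 and 8. The genotypes did not overlap here either, though WT 5 and cKO 7 were 8.83 CPM apart. The log2 difference was -0.27 (SE 0.05), or 16.8% lower, and it stayed between -0.29 and -0.23 in the other settings.

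Cish, a target of STAT5 whose product also limits T cell receptor signalling through phospholipase C gamma 1, was the most abundant member. Its values were 619.5, 609.9, 609.8, 490.0 and 655 CPM in WT 1, 3, 4, 5 and 9, and 452, 491, 562 and 542 CPM in cKO 2, 6, 7 and 8. WT 5 lay within the cKO range, and the other WT samples were above all cKO samples. The means were 597 ± 62.6 (SD, n = 5) and 512 ± 49.9 CPM (SD, n = 4), a log2 difference of -0.22 (SE 0.08), and -0.29 without WT 5. Cish shares 479 exonic bases with Gm17041, an antisense gene on the other strand. It also shares 261 with Gm17040, a transcribed pseudogene on that strand with 2841 counts over all samples. Because it is not stated whether strand was used in counting, reads of these genes cannot be told apart with certainty. The WT values of Gm17041 lay between 96.5 and 133 CPM and the cKO values between 89.8 and 110.4 CPM. The counts of Cish and Gm17041 summed, without Gm17040, gave the same log2 difference of -0.22. Gm17041 varied with Cish, both being highest in WT 9 and lowest in cKO 2, so this sum cannot tell their reads apart.

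Socs2, another STAT5 target, best known for restraining growth hormone signalling, varied widely within each genotype. It held 218, 253.5, 325, 262 and 362 CPM in WT 1, 3, 4, 5 and 9, and 209, 227, 308 and 277 CPM in cKO 2, 6, 7 and 8. The ranges overlapped over most of their length. The log2 difference was -0.16 (SE 0.15) with all samples, -0.05 without WT 9, -0.24 without WT 1 and 0.06 with 1 surrogate variable, so its sign was not stable.

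Socs5, an inhibitor linked to epidermal growth factor receptor and to IL-4 receptor signalling, had the largest difference among the members with higher means in cKO. It held 25.4, 21.6, 20.8, 20.96 and 19.9 CPM in WT 1, 3, 4, 5 and 9, and 24.5, 30.9, 26.0 and 27.1 CPM in cKO 2, 6, 7 and 8. WT 1 was the single WT sample within the cKO range. The log2 difference was 0.32 (SE 0.08), or 24.7% higher, and it was 0.38 without WT 1 and 0.25 without cKO 6, the highest and lowest values over the other settings.

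Socs4, Socs6 and Socs7 differed little. Socs4, a relative of Socs5, was the least variable member, with WT samples between 107 and 115 CPM, cKO samples between 114 and 123 CPM and a log2 difference of 0.08 (SE 0.04). Socs7, which binds the adaptor NCK and insulin receptor substrates, had WT samples between 59.6 and 70.9 CPM and cKO samples between 63.2 and 71.4 CPM, a difference of 0.10 (SE 0.06). Socs6, linked to the turnover of KIT and LCK, was at 17.5 ± 1.40 CPM (SD, n = 5) and 18.1 ± 0.156 CPM (SD, n = 4), with its 4 cKO samples between 17.96 and 18.3 CPM inside the WT range of 16.1 to 19.4 CPM, and a difference of 0.05 (SE 0.06). The genotypes overlapped for all 3 genes. Without WT 1 the differences were 0.09 for Socs4, 0.09 for Socs6 and 0.14 for Socs7.

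**Figure D2:**
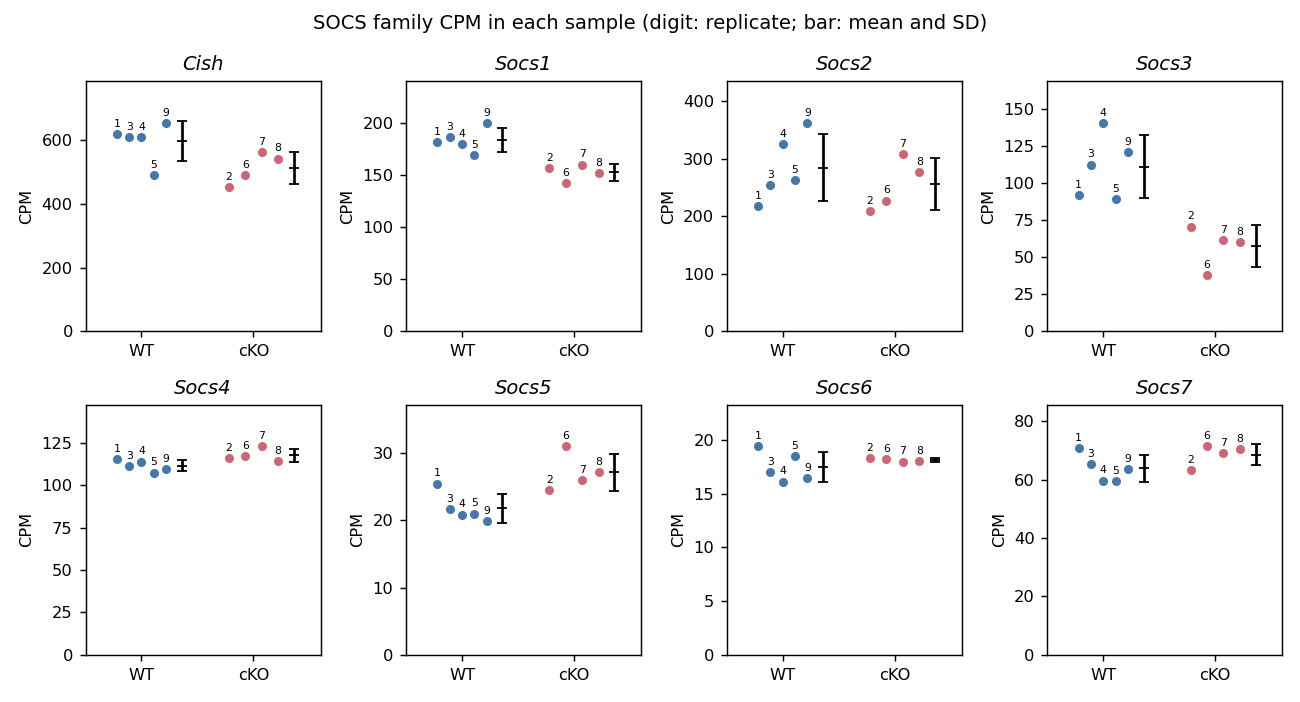
CPM (vertical axes from 0) of each SOCS family gene in every sample, labelled by replicate, with the mean and SD of each genotype at its right. The genotypes separate for Socs1 and Socs3, with Socs3 at 37.7 to 70.7 CPM in cKO and 89.4 to 140.9 CPM in WT, and overlap for the other 6 genes.

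By the fitted difference, Cish, Socs1, Socs2 and Socs3 were lower in cKO, and Socs4, Socs5, Socs6 and Socs7 higher. Samples of the 2 genotypes overlapped for 6 of the 8. These signs were the same under TMM, DESeq2 size factors and upper-quartile scaling. With 1 surrogate variable Socs2 was at 0.06 and Socs6 at -0.001. Family transcripts summed to 1390.0 ± 126 CPM in WT (SD, n = 5) and 1209 ± 103 CPM in cKO (SD, n = 4), with totals from 1217 to 1549 and from 1110.0 to 1328 CPM that overlapped. Cish made up 42.9% of this sum in WT and 42.3% in cKO, while Socs3 made up 7.96% ± 1.05 (SD, n = 5) and 4.78% ± 1.25 (SD, n = 4).

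**Figure D3:**
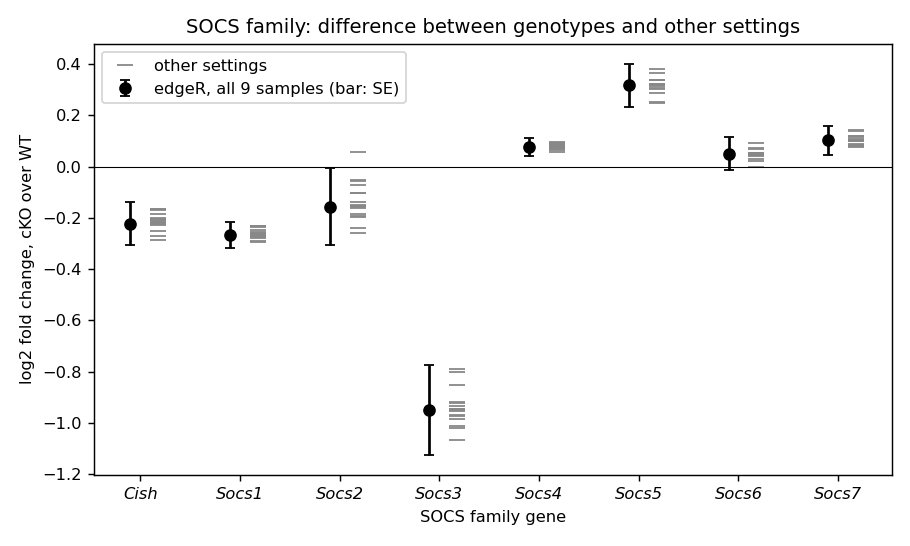
Log2 fold change of cKO over WT for each SOCS family gene, with the edgeR value and its SE as black points and each alternative setting as a grey dash. Socs3 lies between -1.07 and -0.79 in all settings, Socs2 spans 0, and Socs4, Socs5 and Socs7 stay above 0.

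Samples of a genotype differed from each other in a way that several members shared. WT 9 had the highest Cish, Socs1 and Socs2 of the WT samples, and WT 4 the highest Socs3. WT 1 had the highest Socs4, Socs5, Socs6 and Socs7 and the lowest Socs2, and WT 5 the lowest Cish, Socs1, Socs3, Socs4 and Socs7. Among cKO samples, cKO 2 had the highest Socs3 and Socs6 and the lowest Cish, Socs2, Socs5 and Socs7, cKO 6 had the lowest Socs1 and Socs3 and the highest Socs5 and Socs7, and cKO 7 the highest Cish, Socs1, Socs2 and Socs4. The within-genotype SD of log2 CPM was 0.33 for Socs3 and 0.28 for Socs2, against a median of 0.11 over all genes tested. It was 0.04 for Socs4, lower than in all but 7.21% of genes. The highest activation gene levels were those of WT 1 and cKO 6, at 0.58 and 0.43. The part of activation in the SOCS values was not tested.

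**Figure D4:**
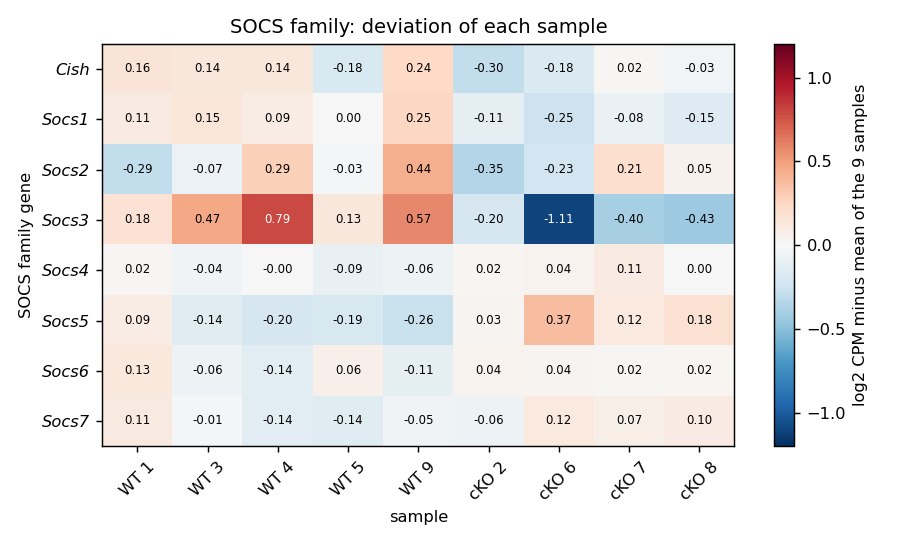
Log2 CPM of each SOCS family gene in each sample minus its mean over the 9 samples, from blue (lower) to red (higher). Socs3 runs from 0.79 in WT 4 to -1.11 in cKO 6, while Socs4 stays within 0.11 of its mean.

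The genes whose levels followed Socs3, Socs1 and Socs5, the members with the largest differences, were searched among 13193 genes that averaged 1 CPM or more, by Pearson's r of log2 CPM over the 9 samples. Because the samples share the genotype difference, r is only a description. The 3 most like Socs3 were Coro7, a coronin (r = 0.992), Cln6, an endoplasmic reticulum protein gene (r = 0.992), and Treml2, a TREM family receptor (r = 0.992). Those most like Socs1 were Kcnk5, a potassium channel (r = 0.985), Selenow, a selenoprotein (r = 0.974), and Frmd6 (r = 0.973). Socs5 was followed most closely by Cd74, the invariant chain of MHC class II (r = 0.989), Ahctf1, a nuclear pore assembly factor (r = 0.987), and Nfkbie, an inhibitor of NF-kB (r = 0.986).

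Differences in the JAK and STAT genes, which signal upstream of the family, were mostly small. Of 4 JAK genes none passed the test, beside 15.8% of all genes called. Jak1 held 549 CPM in the WT mean and 504 CPM in the cKO mean (log2 -0.12, SE 0.04, edgeR adjusted p = 0.0587). Jak3 was at 237 and 219 CPM, Tyk2 at 71.3 and 68.3 CPM, and Jak2 at 208 CPM in both. At unadjusted p under 0.05, 1 JAK gene was lower and 0 higher, and the Jak1 call was made by DESeq2 (adjusted p = 0.0419) and without WT 1 (0.0382). Jak3 was called lower, at -0.17, with 1 surrogate variable (adjusted p = 0.0300). Among the STAT genes, Stat4 fell by 0.36 (SE 0.10, edgeR adjusted p = 0.0351), and Stat2, Stat3, Stat5a, Stat5b and Stat6 did not pass. Stat5a was at 128 and 145 CPM, Stat5b at 207 and 221 CPM, Stat6 at 216 and 239 CPM and Stat2 at 101 and 117 CPM, and Stat3 differed by 0.11 (SE 0.13). The call of Stat4 was lost without any 1 of WT 3, WT 4, WT 5, cKO 6, cKO 7 or cKO 8 (adjusted p from 0.0590 to 0.103), and robust quasi-likelihood did not make it (0.0520). Without WT 1, Stat5a, Stat5b and Stat6 were called higher, by 0.30, 0.14 and 0.18.

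Receptors for cytokines were called in both directions, more of them lower. Of 21 tested cytokine receptor genes, 7 fell (Il2ra, Il4ra, Il7r, Il10ra, Il23r, Ifngr1 and Ifnar1), 2 rose (Prlr and Il15ra) and 12 did not pass, beside 8.82% of all genes called lower and 7.0% higher. The median log2 difference was -0.20, against 0.0012 for all genes. Il10ra, which signals through STAT3, fell by 0.97 (SE 0.14, edgeR adjusted p = 0.00192) from 65.4 to 33.4 CPM, and Ifnar1, a chain of the type I interferon receptor, fell by 0.28 (SE 0.05, adjusted p = 0.00325). Il23r fell by 1.28 (adjusted p = 0.00972) but was at 1.53 and 0.625 CPM. Prlr, the prolactin receptor, rose by 1.09 (SE 0.16, adjusted p = 0.00167) from 8.29 to 17.7 CPM. The number of receptors that rose was 1 without WT 4 or cKO 6.

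Of 11 cytokine genes tested, 1 fell, beside 8.82% of all genes called lower, and 10 did not pass. The median log2 difference of this list was 0.30, and it ran from -0.48 to 0.46 over the other settings. The gene that fell was Osm, itself a STAT5 target, by 0.58 (SE 0.15, edgeR adjusted p = 0.0260), from 73.8 to 49.6 CPM. The Osm call was lost without any 1 of WT 4, WT 9, cKO 2, cKO 6 or cKO 8 (adjusted p from 0.0509 to 0.0780), and robust quasi-likelihood did not make it (0.0564). The cytokine genes called lower numbered 2 with DESeq2 or weighted limma-voom and 3 with 1 surrogate variable, and without WT 1, 3 cytokine genes rose. Among 15 genes outside the family known as STAT targets, 4 fell (Il2ra, Pim1, Osm and Bcl3), 2 rose (Ccnd2 and Irf1) and 9 did not pass. All genes tested had 8.82% called lower and 7.0% higher. Il2ra and Osm were already counted above, among the receptors and the cytokines. Bcl3, a nuclear IkB family gene, fell by 0.47 (SE 0.10, adjusted p = 0.0130), Il2ra, the IL-2 receptor alpha chain, by 0.31 (SE 0.08, adjusted p = 0.0190) and Pim1, a survival kinase gene, by 0.24 (SE 0.06, adjusted p = 0.0169), though Pim1 was not called without cKO 6 (0.0563). Ccnd2, a G1 cyclin, rose by 0.22 (SE 0.05, adjusted p = 0.0153). Without cKO 6, 2 of these targets fell, and 1 rose without any 1 of WT 3, WT 4, WT 9 or cKO 6 or with robust quasi-likelihood.

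A list of 9 tested genes covered the ligase that SOCS boxes recruit and related genes (Elob, Eloc, Cul5, Cul2, Rnf7, Rbx1, Arih2, Ube2f and Nedd8). Of these 2 rose, beside 7.0% of all genes, and for lists this short such counts say little. Cul5, the cullin scaffold, rose by 0.21 (SE 0.05, edgeR adjusted p = 0.0138), from 74.0 to 85.5 CPM, and Rnf7, its RING subunit, by 0.16 (SE 0.05, adjusted p = 0.0448), a call lost without any 1 of WT 1, WT 3, WT 4, WT 9, cKO 2, cKO 6 or cKO 7 (0.0565 to 0.116), with no count filter (0.0778), with weighted limma-voom (0.0548) and with 1 surrogate variable (0.0567). None of 15 tested genes of other SOCS box proteins passed in edgeR, beside 15.8% of all genes called. At unadjusted p under 0.05, 1 was higher and 1 lower. The nearest to passing were Wsb1 (edgeR adjusted p = 0.147) and Spsb3 (0.157). Both were called without WT 1, at 0.22 and -0.14. Of 13 other inhibitors of JAK-STAT signalling 2 were called, a share close to the 15.8% of all genes: the phosphatase gene Ptpn6 rose by 0.26 (adjusted p = 0.0462) and Pias2 by 0.14 (adjusted p = 0.0477). Both calls were lost without any 1 of WT 3, WT 4, WT 9, cKO 6 or cKO 8 (0.0830 to 0.140 for Ptpn6, 0.0886 to 0.134 for Pias2), and Pias2 also without WT 5 or cKO 7 (0.0950 and 0.0946). With 1 surrogate variable neither was called (0.0553 for Ptpn6 and 0.0763 for Pias2), nor was Ptpn6 with robust quasi-likelihood (0.0561) or Pias2 with no count filter (0.1002). Of 8 tested partners of single SOCS proteins, 1 fell and 1 rose, beside 8.82% and 7.0% of all genes, and 6 did not pass. Lck, the T cell receptor kinase bound by SOCS6, fell by 0.20 (SE 0.04, edgeR adjusted p = 0.00547). Kit, a receptor also bound by SOCS6, rose by 1.94 (SE 0.28, adjusted p = 0.00172) from 1.33 to 5.05 CPM.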

How the data were processed

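CD4+ T cell RNA of 5 WT and 4 cKO samples was read from stranded libraries made after mRNA enrichment, per the labels' protocols. The authors deposited 1 table of raw counts per gene, not normalized, with 1 column per sample, and columns were matched to samples by title. The submitters' processing notes name bcl2fastq 2.17 and mm10. Not given in the sources used here are the aligner, the counter and its strand setting, and the annotation. Symbols matched 37607 of 39017 IDs, and GENCODE M21, of the same build, gave exon lengths.

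The main test was edgeR 4.0.16 (quasi-likelihood F test, two-sided, TMM, genes kept by filterByExpr, no covariate) in R 4.3.3, with Benjamini-Hochberg adjustment over 14693 genes and a threshold of 0.05. The SE is the absolute log2 fold change divided by the square root of F. Log2 CPM used a prior count of 2. Chi-square per gene between samples of 1 genotype ran from 3.34 to 20.3, so all samples were counted separately. On simulated data with 200 changed genes of 14693, edgeR found 24% of the 1.2-fold, 72% of the 1.5-fold, 94% of the 2-fold and 98% of the 4-fold changes. Of its 151 calls 7 were false. The real data had 2324 calls, and the simulation gave each gene the spread of the trend over all genes. These rates therefore need not hold for the real data or for single genes with a wide spread.

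The members, lists and rule for named genes were chosen with earlier results of these data known. The rule named every member, Kdm6a and its paralogs, all JAK and STAT genes, up to 4 called members of each other list by adjusted p (or up to 2 by p where none was called), the most abundant markers, and the 3 genes most like each of the 3 members with the largest difference. Alternatives were upper-quartile scaling, DESeq2 size factors, no filter, DESeq2 1.42.0, 1 CPM or more in 4 samples as the filter, robust quasi-likelihood, limma-voom (limma 3.58.1), unweighted or with sample weights, 1 surrogate variable (sva 3.50.0), leaving out each sample, longest transcripts for RPKM and the 250 bases before the start for motifs. The sum of Cish and Gm17041 was added after seeing the data. Protein sequences were not analysed here, and 1 gene that the rule names is not reported here.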

Additional observations from a re-analysis of the deposited data

Results flagged for a closer look

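Groups of values were screened for a sample far from the others, in 100 groups of 4 or 5 samples, of which 5 were picked out, about the 1 in 20 that chance gives. Among the members, Cish in WT 5, at 490.0 CPM, lay apart from the other WT samples at 609.8 to 655 CPM. Stat2 was at 143.5 CPM in cKO 2 against 106 to 110.5 CPM in the other cKO samples. In WT 1, Pias2 was at 72.8 CPM (65.2 to 67.2 CPM in the other WT samples), Spsb3 at 33.5 CPM (37.5 to 38.5 CPM) and Cd74 at 52.1 CPM (37.4 to 39.8 CPM).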

How the results depend on the processing

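Over the 18 other settings the log2 difference ran from -0.29 to -0.23 for Socs1, from -1.07 to -0.79 for Socs3 and from 0.25 to 0.38 for Socs5. The number of members past the threshold was 2 to 3 with 1 sample left out and 3 in each other setting. Socs5 was not past it without any 1 of WT 3, WT 4, WT 5, WT 9, cKO 6 or cKO 8. Without WT 5, Cish was past it, lower in cKO. With 1 surrogate variable the sign changed for Socs2 (0.059), Socs6 (-0.0011), Jak2 (-0.091), Stat3 (-0.060) and Kdm6b (-0.17), none of them called with all samples and no covariate. Jak2 was also at -0.0028 with no count filter, and with 1 sample left out ran from -0.061 (without WT 5) to 0.124 (without WT 1), as Kdm6b did from -0.067 (without WT 4) to 0.341 (without WT 1). With 1 sample left out, the genes called ran from 1263 (without cKO 6) to 2933 (without WT 1), with 1504 without cKO 8 and 1528 without WT 4, and the called genes of the pathway lists from 12 (without cKO 6) to 40 (without WT 1), with 14 without WT 4, against 2324 and 22 with all samples. The difference in mitochondrial share ran from 0.171 to 0.270 percentage points, with two-sided exact permutation p from 0.0286 to 0.0714. The cause of these changes was not tested. In the 250 bases before the RefSeq start, 7.02% of promoters held TTCNNNGAA and 5.85% the form with 4 bases between TTC and GAA. Counted from that start, both Cish matches lie outside this window, and those of Socs3 and Socs1 inside it. No paired analysis was possible because the 2 genotypes share no replicate number.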
